A study of Mus musculus with 18 samples.

Results

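Heart muscle and a slow skeletal muscle of the mouse were compared gene by gene, as vehicle heart minus wild-type soleus. The members were found by the sample titles, which name 3 control hearts and 3 wild-type soleus muscles, and these are 6 of the 18 arrays of the series. The study asked what follows when EglN1, an oxygen-sensing prolyl hydroxylase also written Egln1, is lost or inhibited in striated muscle, and the arrays used here are the unperturbed groups of its muscle and heart experiments. The vehicle hearts came from C57BL/6 mice of EglN1 WT genotype that were given the vehicle of the EglN inhibitor FG-4497. The wild-type soleus muscles came from mice of the same background and EglN1 WT genotype that carried a skeletal-muscle Cre recombinase and received tamoxifen for 3 days before harvest. A second pair of groups, which shares no array with the first, is used for comparison: hearts of mice given FG-4497 intraperitoneally at 50 mg/kg, and soleus of EglN1 knockout mice with the same Cre and tamoxifen treatment. Quadriceps of the wild-type mice, 3 arrays, is quoted in places as a level only. The Cre acts in skeletal muscle by its label, its promoter is not given in the sources used here, and the labels call the arrays of a group biological replicates without stating age, sex or the part of the heart taken.

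Tissue, Cre, tamoxifen, vehicle and experiment all change together between these groups and cannot be told apart. Size is therefore given first. Smaller differences are given as values, or as counts at the adjusted p beside the share of all genes, and are not read as differences between the tissues. A difference is called large where limma's adjusted p is under 0.05 and the difference is at least 2 on the log2 scale, which is 4-fold. Values are the authors' log2 expression values for each array. A level of 6.60, the 40th percentile over genes of the mean of the 6 arrays, served as detection level. A group mean below it was raised to it before the size was judged, and the difference is then given as "at least". In pieces of tissue, fewer cells of a type and less RNA per cell cannot be told apart.

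Both tissues are striated and draw on mitochondrial respiration. Heart muscle consists of single cells joined end to end at intercalated discs. It is paced by its own rhythm and tuned by autonomic nerves, and in the adult mouse it is built on alpha myosin heavy chain. The soleus, a postural calf muscle, is made of long multinucleate fibres, each driven by a motor neuron at a neuromuscular junction, and in the mouse it mixes slow fibres with fast oxidative ones. The sarcomere proteins come in gene families whose members are used by heart, slow fibres or fast fibres, and several members are shared between heart and slow fibres.

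The 3 genes that mark heart muscle separated the tissues without overlap. Myh6, the alpha myosin heavy chain of adult mouse heart, read 14.13, 14.06 and 14.09 in vehicle hearts, against 8.80, 8.89 and 8.88 in wild-type soleus. Tnni3, cardiac troponin I, read 13.95, 13.97 and 13.93 in hearts and 6.77, 6.78 and 6.73 in soleus. Nppa, the precursor of atrial natriuretic peptide, read 12.36, 12.02 and 11.85 in hearts and 6.51, 6.26 and 6.46 in soleus, where every array lay below the detection level. Every heart array was above every soleus array for each of these genes, by 37.7-fold for Myh6, 146-fold for Tnni3 and at least 44.5-fold for Nppa. The soleus label was borne out by slow fibre troponins: Tnni1, slow skeletal troponin I, averaged 7.11 ± 0.18 in hearts and 13.19 ± 0.04 in soleus (SD, n = 3 each). In wild-type quadriceps, a fast muscle, Tnni1 averaged 7.10.

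Within a tissue, arrays correlated at r from 0.9929 to 0.9972 over genes, and between heart and soleus at 0.9434 to 0.9498. Array medians lay between 7.02 and 7.15. The Y-linked gene Eif2s3y averaged 9.62 in hearts and 9.89 in soleus, and Xist, the X-inactivation RNA, 4.43 and 4.38, so the groups did not differ in these markers of sex by more than 0.27. Genes of the fast fibre program and of fat varied among the soleus arrays. Myh4, the fastest myosin heavy chain, read 10.90, 13.31 and 8.99 in the 3 soleus arrays, and Adipoq, the fat hormone adiponectin, 7.97, 9.24 and 7.84. Soleus replicate 2 was the highest for both. Esr1, the estrogen receptor, was at least 4.53-fold lower in heart, at 6.40, 5.85 and 6.14 against 8.81, 8.84 and 8.69 in soleus. With the detection level at the 50th percentile its raised difference was -1.65, which is not large. Inducible Cre proteins are often fused to a part of this receptor, and whether such a transcript reaches this probe set was not tested. Wild-type quadriceps, from mice with the same Cre, averaged 9.77 for Esr1.

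Of 12161 genes tested, 292 (2.4%) differed by a large amount, 114 higher in heart (0.937%) and 178 lower (1.46%). At the adjusted p alone 7225 genes passed (59.4%), 3692 higher (30.4%) and 3533 lower (29.1%), and the groups did not overlap for 8032 genes (66%), which is why the adjusted p is not used by itself here. The median difference over all genes tested was 0.0245. The large differences had a median size of 3.04 for genes higher in heart and 2.74 for genes lower. For 35 of the 114 and 54 of the 178 the other tissue lay below the detection level, and all 292 were without overlap between groups. The lists of genes named below hold 657 measured genes, and counts per list are read against these shares.

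**Figure D1:**
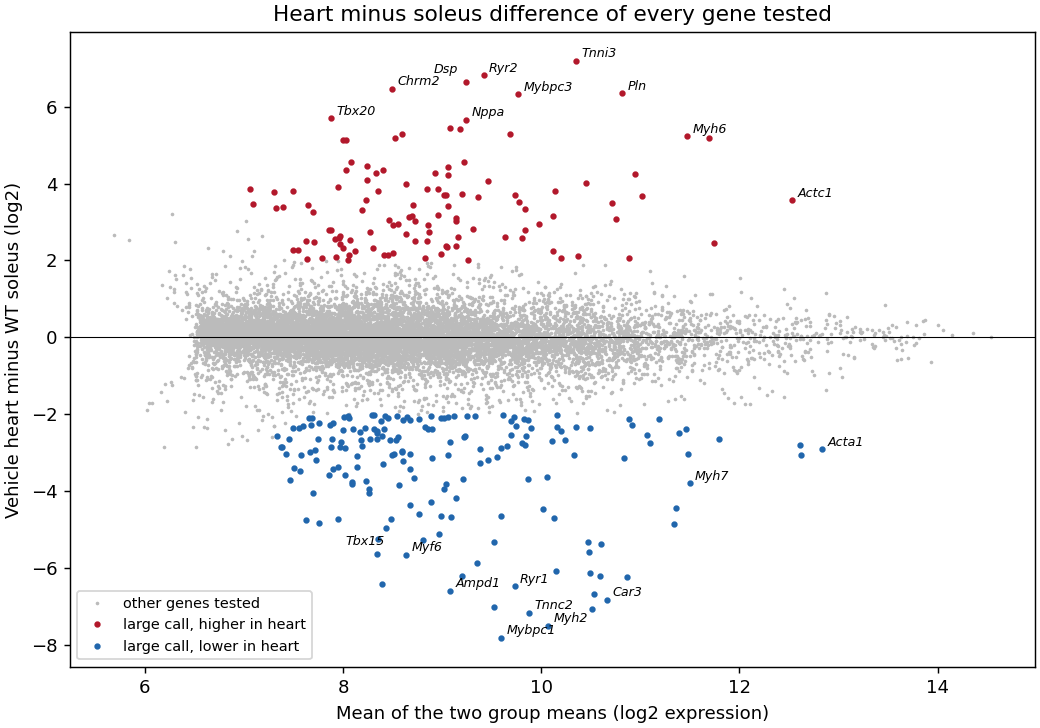
Heart minus soleus difference (log2, vertical axis) against the mean of both group means (log2 expression, horizontal axis) for the 12161 genes tested, as measured, without raising means to the detection level. Red points are the 114 large differences higher in heart and blue points the 178 lower. Contractile and calcium handling genes such as Tnni3, Ryr2, Myh2 and Mybpc1 lie among the points farthest from 0.

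The 15 genes with the largest excess in heart were led by sarcomere, calcium cycling and cell junction genes. Tnni3 differed by 7.19 on the log2 scale, Pln by 6.35, Mybpc3 by 6.32, Ryr2 by at least 6.23 and Dsp by at least 5.96. Nppa and Nppb, the natriuretic peptide genes, and Corin, the protease that activates their products, differed by at least 5.48, 5.28 and 5.21. Cdh2, Myh6, Tnnt2, Chrm2, Lrrc10, Cacna1c and Nebl completed this set, with Lrrc10, a cardiac leucine-rich repeat protein, at 11.32, 11.09 and 11.33 in hearts and 5.98, 5.88 and 5.97 in soleus. The 15 genes with the largest deficit in heart were led by Myh2, at least 149-fold lower, and by Atp2a1, 136-fold lower. They held the skeletal contractile genes Mybpc1, Tnnc2, Tnnt3, Myh1, Neb, Tpm2 and Tnni1, the release channel gene Ryr1, and Ankrd2, Ampd1, Pvalb, Myoz1 and Car3.

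Among contractile genes, the slow fibre list fell into a shared and an unshared set. Of its 15 genes, all tested, 7 were lower in heart by a large amount, none was higher by a large amount, and the median difference was -0.29. Slow troponin T, Tnnt1, read 7.62, 7.71 and 7.73 in hearts and 13.35, 13.14 and 13.36 in soleus. Myh7, the beta myosin heavy chain of slow fibres, read 9.45, 9.69 and 9.64 in hearts and 13.42, 13.30 and 13.47 in soleus. The groups were far apart for both, by 48.4-fold for Tnnt1 and 14-fold for Myh7 on limma's fit (adjusted p = 8.41e-11 and 1.08e-09). Tnni1, Tpm3, Ankrd2, Fhl1 and Myl6b were the other 5. Tpm3, the slow tropomyosin gene, differed by -4.44 for its brightest probe set and by -0.87 to -1.84 for its other 3 probe sets.

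The remaining slow fibre genes differed little between the tissues. Tnnc1, the troponin C of heart and slow fibres, read 13.50, 13.43 and 13.51 in hearts and 13.46, 13.38 and 13.46 in soleus. Myl3, the ventricular and slow essential light chain, read 13.68, 13.78 and 13.69 in hearts and 13.72, 13.59 and 13.70 in soleus. The groups overlapped for both, and the difference had a 95% interval of -0.10 to 0.19 for Tnnc1 and -0.11 to 0.20 for Myl3. Wild-type quadriceps averaged 6.92 for Tnnc1 and 7.67 for Myl3. The other members without a large difference were Myl2 (13.93 in hearts, 13.62 in soleus), Atp2a2 (14.16 and 13.84), Casq2 (11.94 and 11.79), Myoz2 (13.44 and 13.73), Csrp3 (12.55 and 12.52) and Myh7b (9.52 and 9.31). These include the regulatory light chain, the calcium pump and the calsequestrin that heart and slow fibres have in common.

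Fast fibre genes were lower in heart almost throughout. Of 18 tested, 17 were lower by a large amount, with a median difference of -5.35 over the list. Myh2, the myosin of fast oxidative fibres, read 6.41, 5.84 and 6.69 in hearts and 13.84, 13.77 and 13.85 in soleus. Myh1, the myosin of the next faster fibres, read 6.06, 5.94 and 6.00 in hearts and 13.05, 13.10 and 12.96 in soleus. Soleus was high and tight for both, and the hearts lay near the detection level or below it. Tnnt3, fast troponin T, differed by -6.68 and Tnni2, fast troponin I, by -5.32. Pvalb, the calcium buffer parvalbumin, read 6.16, 6.33 and 5.79 in hearts and 12.25, 13.14 and 11.51 in soleus. Actn3, the alpha-actinin of fast fibres, read 6.37, 7.0 and 6.59 in hearts and 11.36, 12.42 and 10.17 in soleus. As for Myh4, the soleus arrays were spread for these genes and soleus replicate 2 was the highest, but the groups did not overlap. The exception in the list was Tpm1, at 13.62 in hearts and 13.74 in soleus, a tropomyosin gene used by heart and fast fibres.

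Cardiac forms of sarcomere proteins ran the opposite way. Of 20 cardiomyocyte markers, 19 were tested, 13 were higher in heart by a large amount and 2 lower, and the median difference was 3.57. Tnnt2, cardiac troponin T, read 14.32, 14.26 and 14.29 in hearts and 9.24, 8.90 and 9.17 in soleus. Mybpc3, cardiac myosin-binding protein C, read 12.84, 12.95 and 12.98 in hearts and 6.71, 6.55 and 6.55 in soleus. Both were well separated, by 36.4-fold and 80-fold. The other forms of myosin-binding protein C went the other way: Mybpc1, the slow form, averaged 5.68 in hearts and 13.51 in soleus, and Mybpc2, the fast form, 8.0 and 11.11. The 2 cardiomyocyte markers that were lower in heart were Myl4, an atrial and embryonic light chain, at 7.96 in hearts and 10.07 in soleus, and the kinase gene Sbk2, at 7.16 and 10.19. Without heart replicate 3 the difference for Myl4 was -1.997, which just missed the threshold, against -2.11 with it. Tecrl, 1 of the 13 higher, differed by 2.08 and was not large in 3 alternative settings, with 1.97 without soleus replicate 1.

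Actins and giant sarcomere proteins followed the same division. Actc1, cardiac actin, read 14.32, 14.26 and 14.36 in hearts and 10.70, 10.68 and 10.85 in soleus. Acta1, skeletal actin, read 11.91, 11.34 and 10.88 in hearts and 14.28, 14.27 and 14.32 in soleus. Heart was 11.9-fold higher for Actc1 and 7.54-fold lower for Acta1, and hearts varied more than soleus for Acta1. In wild-type quadriceps Actc1 averaged 13.64, nearer to the hearts than to soleus. Neb, the giant thin-filament protein nebulin of skeletal muscle, differed by -6.24, and Nebl, its short cardiac relative nebulette, by at least 4.52 for its brightest probe set. The other Nebl probe set averaged 9.17 in hearts and 6.51 in soleus, a difference of 2.66 as measured. Ttn, titin, and Actn2, the Z-disc actinin of all striated muscle, differed by -0.60 and -0.58, which is not large. A list of 37 sarcomere and Z-disc genes, all tested, includes the genes just named and also Mybpc3, Tnnt2 and Tnni3, which with Actc1 are counted among the cardiomyocyte markers too. In it 6 were higher in heart by a large amount and 8 lower, with a median difference of -0.60. Actc1 and Acta1, and Myh6 and Myh7, are close relatives in sequence, so the lower reading of each pair is uncertain, and signal from the other gene was not tested.

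**Figure D2:**
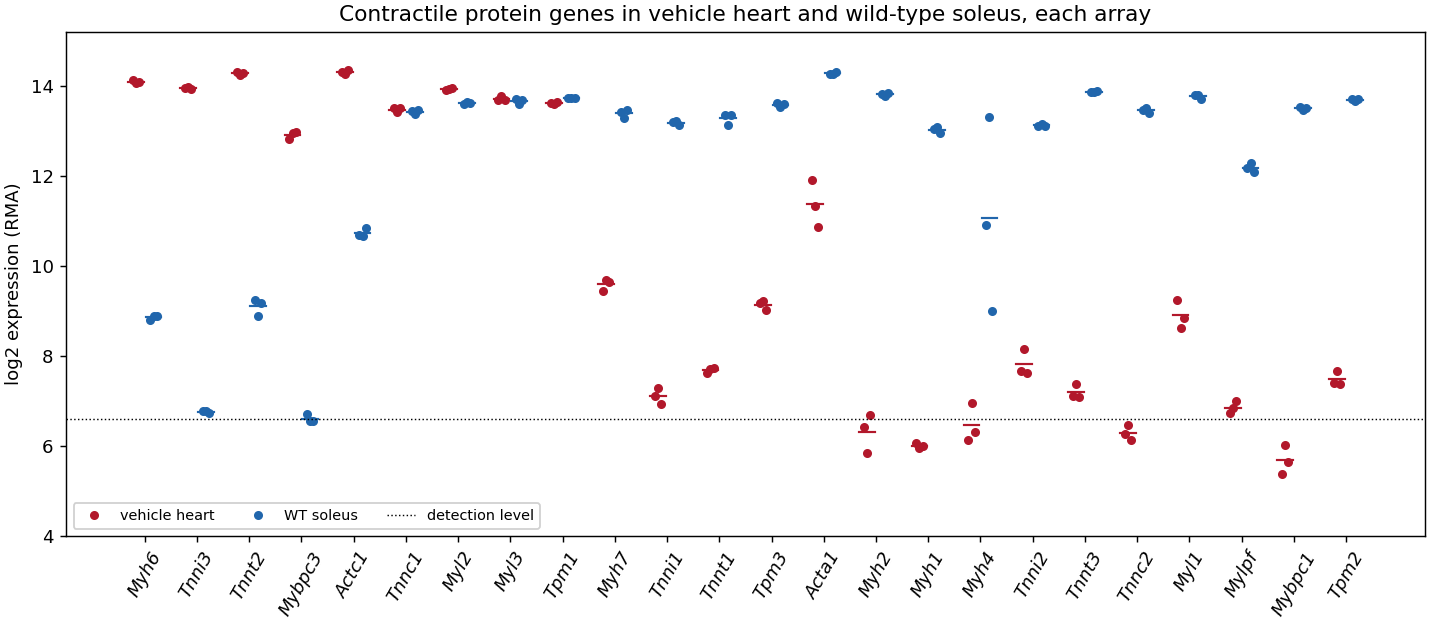
Log2 expression on each array for 24 contractile protein genes, vehicle heart in red and wild-type soleus in blue, with a bar at each group mean and a dotted line at the detection level of 6.60. The arrays of both tissues overlap for Tnnc1 and Myl3 and lie close without overlap for Myl2 and Tpm1, while cardiac forms such as Tnni3 and fast forms such as Myh2 sit far apart.

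Calcium handling genes split by isoform as well. Contraction starts when a surface calcium channel opens the release channel of the sarcoplasmic reticulum, and ends when a calcium pump, held in check in heart by phospholamban, refills the store. Ryr2, the cardiac release channel, read 12.83, 12.78 and 12.87 in hearts and 6.13, 5.91 and 5.99 in soleus. Ryr1, the skeletal release channel, read 6.31, 6.46 and 6.71 in hearts and 12.91, 13.03 and 12.97 in soleus. Heart was at least 74.8-fold higher for Ryr2 and at least 82.7-fold lower for Ryr1, near mirror images. The surface channels did the same: Cacna1c, the cardiac L-type channel, averaged 11.50 in hearts and 6.94 in soleus, and Cacna1s, the skeletal one, 7.78 and 12.48. Cacnb1, the skeletal beta subunit, and Jph1, a junctophilin that holds the skeletal membranes together, differed by -3.03 and -3.06. Of 28 calcium genes tested, 4 were higher in heart by a large amount and 9 lower, and the list's median of -0.56 lay below the 0.0245 of all genes. Mrln and Slc8a3, among the 9, were each not large in 2 alternative settings. Mrln gave -1.82 without heart replicate 3, and Slc8a3 -1.61 with the detection level at the 50th percentile.

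The calcium pumps and their regulators came next. Atp2a1, the fast fibre calcium pump, read 6.67, 7.54 and 6.71 in hearts and 14.03, 14.11 and 14.03 in soleus. Atp2a2, the cardiac and slow pump, read 14.17, 14.15 and 14.16 in hearts and 13.87, 13.80 and 13.87 in soleus. Hearts lay far below soleus for Atp2a1 and slightly above it for Atp2a2, without overlap for either. Pln, phospholamban, read 13.94, 13.99 and 14.04 in hearts and 7.47, 7.63 and 7.82 in soleus, 81.7-fold higher in heart with no overlap. Casq1, the skeletal calsequestrin, differed by -5.37, while Casq2 differed by 0.15. Sypl2, mitsugumin of the skeletal triad, differed by -4.68, and Trdn, triadin, by -1.04 for its brightest probe set and by down to -3.43 for others of its many probe sets. Slc8a1, the sodium-calcium exchanger that extrudes calcium from heart cells, averaged 10.58 in hearts and 6.23 in soleus, and its second probe set showed the same difference of 4.35.

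Promoters are shown for Pln, Mybpc3 and Atp2a1, genes at either end of this comparison, because each holds in the 250 bases before its start a motif of a factor family active in muscle. The sequences are RefSeq's on GRCm38.p6, written on the gene's strand. Capitals mark the motif matches. Pln lies at chr10:53337436-53337685 on the plus strand, with TTATCT, the reverse complement of the GATA motif AGATAA, at bases 183 to 178 before the start. Mybpc3 lies at chr2:91117894-91118143 on the plus strand, with the E-box CAGCTG at bases 108 to 103 and a match of the MEF2 motif (CTA, any 4 bases, TAG) at bases 90 to 81. Atp2a1 lies at chr7:126463074-126463323 on the minus strand, with the E-box at bases 55 to 50.
Pln: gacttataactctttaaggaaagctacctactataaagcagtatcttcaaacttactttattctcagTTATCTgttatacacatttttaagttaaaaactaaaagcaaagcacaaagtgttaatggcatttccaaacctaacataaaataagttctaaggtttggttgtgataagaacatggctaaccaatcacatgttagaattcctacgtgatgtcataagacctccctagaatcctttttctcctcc
Mybpc3: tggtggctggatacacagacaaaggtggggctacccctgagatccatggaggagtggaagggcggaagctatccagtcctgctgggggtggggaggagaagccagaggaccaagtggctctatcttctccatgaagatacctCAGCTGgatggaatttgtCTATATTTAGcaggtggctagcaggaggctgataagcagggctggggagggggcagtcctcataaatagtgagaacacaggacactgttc
Atp2a1: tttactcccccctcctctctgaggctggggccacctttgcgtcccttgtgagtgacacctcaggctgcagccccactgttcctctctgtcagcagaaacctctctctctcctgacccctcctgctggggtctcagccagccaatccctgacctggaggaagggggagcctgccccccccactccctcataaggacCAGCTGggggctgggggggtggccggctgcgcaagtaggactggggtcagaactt
These motifs were searched on both strands in the same window of every promoter, with no overlap among the matches shown. AGATAA was found in 15 of 82 promoters (18.3%) of genes higher in heart by a large amount, in 10 of 132 (7.58%) of those lower, in 5.79% of all genes tested and in 10.3% of 27025 promoters. CAGCTG was found in 15 of 82 (18.3%), in 31 of 132 (23.5%), in 12.2% and in 12.8% of these sets. The MEF2 motif was found in 2.44%, 5.3%, 2.93% and 3.23%, and CATTCCT, the M-CAT motif, in 6.1%, 5.3%, 3.45% and 4.43%. These shares describe letters in a short window, without a test, and say nothing of binding.

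Several genes that join heart cells to each other were higher in heart by a large amount. Of 20 genes of intercalated discs and cell adhesion, all tested, these were 6, and none was lower by a large amount. At the adjusted p 13 were higher and 4 lower (30.4% and 29.1% of all genes), with a median difference of 0.76. Dsp, the desmosomal plaque protein desmoplakin, read 12.55, 12.59 and 12.54 in hearts and 6.01, 5.89 and 5.87 in soleus. Cdh2, the cadherin of the disc, read 12.31, 12.23 and 12.44 in hearts and 6.94, 7.02 and 7.17 in soleus. Pkp2, plakophilin, read 11.10, 11.04 and 11.06 in hearts and 7.32, 7.29 and 7.41 in soleus. All hearts stood above all soleus arrays, by at least 62.2-fold for Dsp, 38.9-fold for Cdh2 and 13.2-fold for Pkp2. Perp, Dsg2 and Ctnna1 were the other 3, and Dsg2 was not large with the detection level at the 50th percentile, at 1.86. Jup and Ctnnb1, catenins present in most adhering cells, differed by 0.74 and 0.06. Cdh15, the cadherin of myoblasts and satellite cells, averaged 7.04 in hearts and 8.42 in soleus.

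Ion channels of the cardiac action potential were among the large differences. Of 29 channel and gap junction genes tested, 8 were higher in heart by a large amount and 4 lower, with a median of 0.97. Gja1, the ventricular gap junction protein connexin, read 12.03, 12.03 and 12.05 in hearts and 8.22, 8.11 and 8.37 in soleus. Kcnd2 and Kcnip2, the pore and an accessory subunit of the transient outward potassium current, differed by at least 3.31 and 3.76. Kcnj3, a potassium channel opened by vagal signals, read 10.57, 9.91 and 10.36 in hearts and 6.08, 6.32 and 6.20 in soleus. Hearts were high for each of these, without overlap. Abcc8, another of the 8, differed by 2.02 and was not large in 4 alternative settings, with 1.91 without soleus replicate 2. Hcn4, the pacemaker channel, averaged 7.72 in hearts and 6.75 in soleus, which is not a large difference. Scn4b, a sodium channel beta subunit, was lower in heart, at 7.33 against 10.47. Kcnma1, a calcium-activated potassium channel, averaged 5.72 in hearts and 10.98 in soleus on its brighter probe set, while its other probe set read 4.54 and 4.51, and the mean of both gave a raised difference of -1.16, which is not large.

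The tissues also differed in the receptors through which nerves and hormones reach them. Of 15 autonomic genes tested, 5 were higher in heart by a large amount and 1 lower, with a median of 1.72. Chrm2, the muscarinic receptor of the vagus, read 11.83, 11.66 and 11.71 in hearts and 5.49, 5.19 and 5.08 in soleus. Adcy5, a cardiac adenylyl cyclase, Pde3a, a cyclic AMP phosphodiesterase, and Agtr1a, an angiotensin receptor, averaged 9.20, 10.03 and 10.23 in hearts against 6.65, 7.07 and 7.84 in soleus. Npr3, the clearance receptor for natriuretic peptides, went the other way at 8.53, 8.48 and 8.30 in hearts and 11.37, 11.23 and 10.95 in soleus. The groups did not overlap for any of these 5. Rgs2, also higher by a large amount at 2.15, gave 1.99 without soleus replicate 1, which is not large. At the neuromuscular junction, 3 of 14 genes tested were lower in heart by a large amount and none higher by a large amount, with a median of -0.73. Chrna1, a subunit of the muscle acetylcholine receptor, read 5.23, 6.21 and 5.31 in hearts and 10.33, 10.22 and 10.37 in soleus. Musk, the kinase that gathers these receptors, read 6.00, 6.14 and 6.24 in hearts and 10.96, 10.91 and 10.67 in soleus. Chrne, the adult subunit, averaged 6.45 in hearts and 8.75 in soleus, and was not large with the detection level at the 50th percentile, at -1.62. Hearts lay below soleus on all arrays for these 3 genes.

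Of 21 transcription factors of heart development tested, from a list of 22, 9 were higher in heart by a large amount and 1 lower. At the adjusted p 15 were higher and 3 lower (30.4% and 29.1% of all genes), with a median difference of 1.80. Tbx20, a T-box factor of heart muscle, read 10.73, 10.72 and 10.74 in hearts and 5.04, 5.13 and 4.92 in soleus. Gata6 and Gata4, zinc-finger factors of the heart, read 10.69, 10.95 and 10.96 and 10.21, 10.50 and 10.28 in hearts, against 7.26, 7.06 and 7.18 and 7.60, 7.26 and 7.32 in soleus. Hearts lay above soleus throughout, by at least 17.5-fold for Tbx20, 13-fold for Gata6 and 7.65-fold for Gata4. Myocd, the coactivator myocardin, differed by at least 3.60, Hopx, a small homeodomain protein, by 3.71, and Irx4, a ventricular homeobox factor, by at least 2.72. Tbx5, Zfpm2 and Hand2 differed by at least 2.40, at least 2.34 and 2.07, and Hand2 by 1.95 without heart replicate 1, short of the size threshold. With the detection level at the 50th percentile these 3 gave 1.88, 1.81 and 1.70 and were not large. Nkx2-5, a homeobox factor of early heart, fell short of the threshold at 9.57 in hearts and 7.76 in soleus, and Hand1, Tbx18 and Nr2f2 overlapped between groups.

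Mef2c, which heart and skeletal muscle both need in development, was the cardiac list's exception, at 9.70, 9.87 and 9.58 in hearts and 12.53, 12.44 and 12.44 in soleus. Its relatives Mef2a and Mef2d differed by 0.18 and -0.20. Of 14 skeletal myogenic and limb factors tested, 7 were lower in heart by a large amount and none higher, with a median of -1.80. Myf6, the myogenic factor of mature fibres, read 5.95, 5.86 and 5.62 in hearts and 11.50, 11.39 and 11.50 in soleus. Tbx15, a T-box factor of fast fibres, read 5.46, 5.78 and 5.33 in hearts and 11.12, 11.33 and 11.07 in soleus. Both lay below the detection level in heart, at least 29.1-fold and 23.8-fold lower than in soleus. Vgll2, Six4, Eya1, Eya4 and Mef2c were the other 5, and Eya4 missed the size threshold without soleus replicate 2, at -1.97 in place of -2.08 after its heart mean was raised, and with the detection level at the 50th percentile, at -1.56. Myod1 averaged 6.97 in hearts and 7.79 in soleus, and Myog, the myogenin of differentiating myoblasts, lay below the detection level in both. Hox genes mark position along the body axis, and 14 of the 35 measured were tested. Of the 14, 12 were lower in heart at the adjusted p (29.1% of all genes were). Several of these, such as Hoxa5 and Hoxc9, lay below the detection level in heart and were tested only through their soleus arrays. The filter therefore favours this direction, and the count is not read as a result. Hoxa5 differed by -0.41 once its heart mean was raised. The 1 large difference was Hoxc10, at 5.80, 6.20 and 5.41 in hearts and 9.11, 9.30 and 9.20 in soleus. Wild-type quadriceps averaged 10.30 for Hoxc10.

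**Figure D3:**
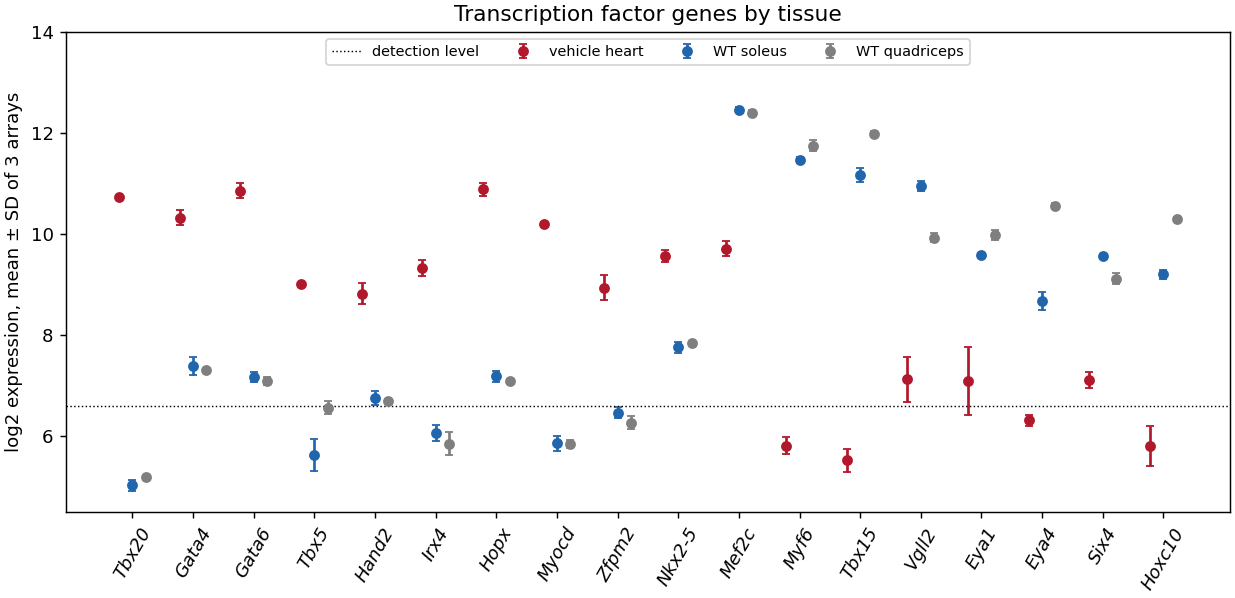
Log2 expression of 18 transcription factor genes as the mean ± SD of 3 arrays in vehicle heart (red), wild-type soleus (blue) and wild-type quadriceps (grey), with a dotted line at the detection level of 6.60. Tbx20, Gata6 and Myocd stand high in heart alone, and Myf6, Tbx15 and Hoxc10 stand high in both skeletal muscles and below the level in heart.

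MicroRNA genes of muscle were read through probe sets for their precursors. MicroRNAs pair with target messages through a seed near their start, and several are carried inside myosin genes. The mature sequences of 3 of them are shown, from RefSeq on GRCm38.p6, with the seed (bases 2 to 8) in capitals, because the first pair have almost the same seed and sit in myosin genes, one that differed between these tissues and one that did not by a large amount.
mmu-miR-208a-3p: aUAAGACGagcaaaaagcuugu
mmu-miR-499-5p: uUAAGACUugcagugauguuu
mmu-miR-206-3p: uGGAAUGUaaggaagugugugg
The seeds of miR-208a and miR-499 share 6 of 7 bases, and those of miR-208a and miR-206 share 1. miR-208a lies at chr14:54949072-54949093 within Myh6, on the minus strand. miR-499 lies at chr2:155622893-155622913 within Myh7b, and miR-206 at chr1:20679055-20679076, both on the plus strand.

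Mir208a read 7.86, 7.60 and 8.19 in hearts and 4.86, 4.54 and 4.63 in soleus. This followed its host Myh6 in direction, and soleus lay below the detection level, so that the difference was at least 1.28 and not large. Mir499 read 5.52, 5.26 and 5.12 in hearts and 5.81, 6.19 and 5.76 in soleus, and Mir206, a skeletal muscle microRNA, 3.49, 3.34 and 3.40 against 6.61, 6.50 and 5.76. Both lay below the level as group means and were not tested, although for Mir206 every heart array was lower than every soleus array. Mir133a-2, a muscle microRNA gene present in heart and skeletal muscle, was lower in heart by a large amount, at 6.42, 6.26 and 6.45 against 8.53, 9.13 and 8.54 in soleus. Of 10 microRNA genes tested it was the only large difference, and without soleus replicate 2 its raised difference was -1.92, in place of -2.13, and with the detection level at the 50th percentile -1.60. These probe sets may read precursor transcripts rather than the mature RNA.

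Genes of mitochondrial energy metabolism differed by small amounts. Of 26 fatty acid oxidation genes, 23 TCA cycle genes and 36 oxidative phosphorylation genes tested, none differed by a large amount. At the adjusted p, 19, 4 and 22 of these were higher in heart and 3, 6 and 0 lower (30.4% and 29.1% of all genes), with median differences of 0.37, 0.01 and 0.26. Atp5b, the catalytic subunit of ATP synthase, read 13.82, 13.78 and 13.83 in hearts and 13.83, 13.84 and 13.80 in soleus. Mb, myoglobin, averaged 14.17 in hearts and 14.12 in soleus, against 13.16 in wild-type quadriceps. Fabp3, the fatty acid carrier of heart and oxidative muscle, averaged 13.43 in hearts and 13.30 in soleus. Ucp3, a mitochondrial carrier of skeletal muscle, had the lowest difference of the fatty acid list, at 8.58 against 10.30. Ppargc1a, a coactivator of mitochondrial genes, read 12.60, 11.90 and 12.16 in hearts and 11.76, 11.60 and 11.57 in soleus.

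Of 19 glycolysis genes tested, 1 was higher in heart by a large amount and none lower by that size. Of 18 genes of glycogen and of glucose or lactate transport, 1 was higher by a large amount and 1 lower, and of 16 genes of creatine, nucleotide and phosphate buffering, 1 was higher and 2 lower. Pygb, the brain form of glycogen phosphorylase, read 12.48, 12.42 and 12.47 in hearts and 8.39, 8.50 and 8.45 in soleus, 16.1-fold higher in heart. Pygm, the muscle form, averaged 12.86 in hearts and 13.33 in soleus. Phkg1, the muscle catalytic subunit of phosphorylase kinase, averaged 7.85 in hearts and 9.91 in soleus. Its difference of -2.06 was not large without heart replicate 3, at -1.90, or without soleus replicate 2, at -1.95. Pfkl, the liver form of phosphofructokinase, read 9.56, 9.51 and 9.75 in hearts and 7.35, 7.46 and 7.43 in soleus, and Pfkm, the muscle form, averaged 12.25 and 12.88. Hearts were above soleus on all arrays for the brain and liver forms, and the muscle forms differed by -0.46 and -0.63. Ampd1, the muscle AMP deaminase, read 5.28, 6.10 and 5.96 in hearts and 12.35, 12.48 and 12.31 in soleus. Car3, a carbonic anhydrase of slow muscle, read 7.0, 7.15 and 7.58 in hearts and 14.03, 14.11 and 14.10 in soleus. Both were far lower in heart, at least 54.8-fold for Ampd1 and 114-fold for Car3. Wild-type quadriceps averaged 13.21 for Ampd1 and 13.8 for Car3, so Car3 was high in both skeletal muscles here. Ak4, a mitochondrial adenylate kinase, was higher in heart, at 10.69 against 7.59, and its other probe set differed by 1.77. Ldha and Slc16a3, lactate dehydrogenase and the lactate exporter of glycolytic fibres, averaged 12.43 and 7.57 in hearts and 13.37 and 9.18 in soleus.

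**Figure D4:**
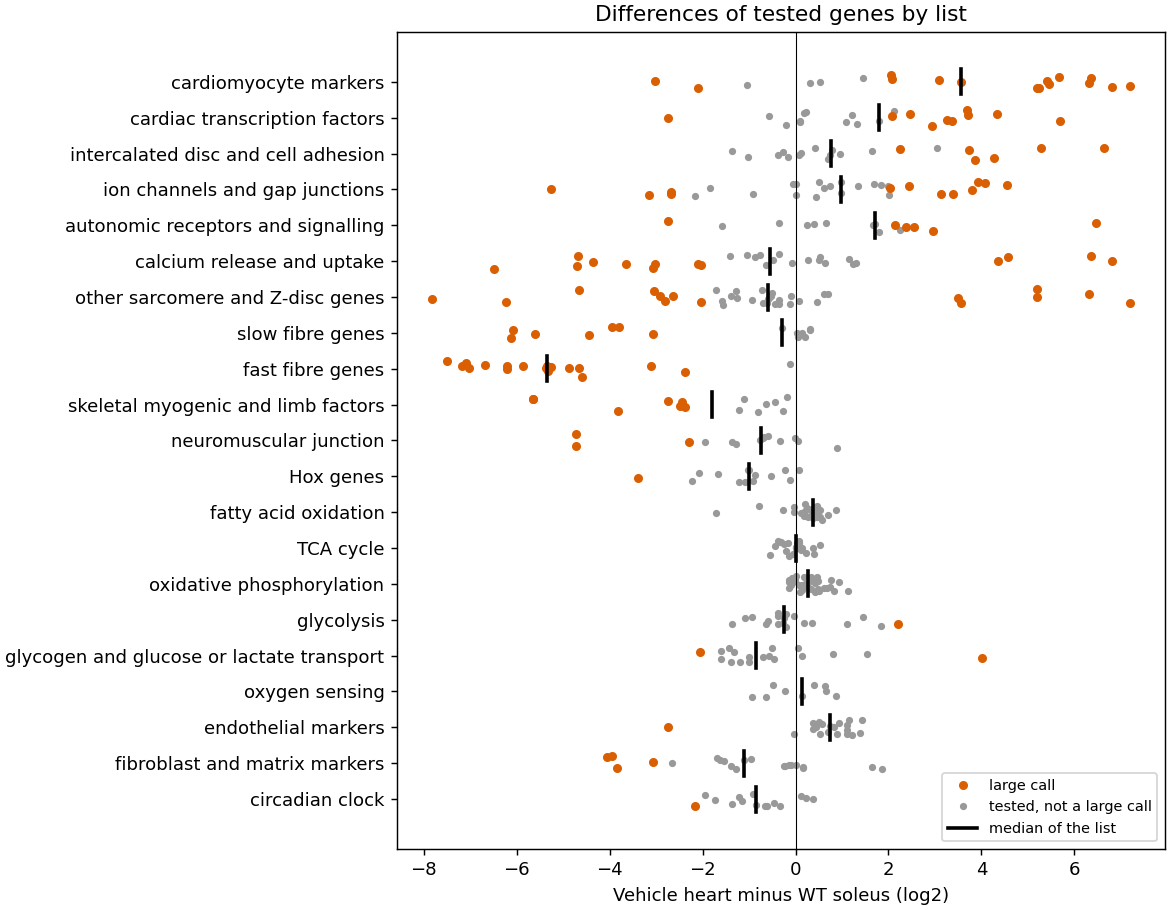
Heart minus soleus difference (log2) of each tested gene in 21 lists, one row per list, with large differences in orange, other tested genes in grey and the median of the list as a black bar. Contractile, junction and factor lists hold most of the orange points, and the lists of fatty acid oxidation, TCA cycle, oxidative phosphorylation and oxygen sensing hold none.

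Oxygen-sensing genes, the subject of the wider study, did not differ by a large amount. EglN enzymes hydroxylate hypoxia-inducible factors in the presence of oxygen and so mark them for destruction. Egln1 read 11.37, 11.34 and 11.50 in hearts and 11.29, 11.22 and 11.31 in soleus, a difference of 0.13 with a 95% interval of -0.03 to 0.29. Egln3 read 11.15, 10.98 and 11.01 in hearts and 11.42, 11.67 and 11.52 in soleus. The substrates Hif1a and Epas1 averaged 10.42 and 11.62 in hearts and 9.76 and 10.99 in soleus. Of 9 genes tested in this list, 4 were higher and 4 lower at the adjusted p (30.4% and 29.1% of all genes). The differences ran between -0.93 for Hif1an, the asparaginyl hydroxylase, and at least 0.85 for P4htm, a related membrane enzyme. The target gene Vegfa averaged 11.50 in hearts and 11.32 in soleus.

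Markers of other cells also differed between these groups, mostly by less than a large amount, and their part in the results above was not tested. All 21 endothelial markers were tested, and 19 were higher in heart at the adjusted p (30.4% of all genes were), none by a large amount, with a median of 0.73. The only one lower was Npr3, described above, by a large amount. The mean of the list lay at 9.77 to 9.81 on heart arrays and 9.10 to 9.25 on soleus arrays. Kdr, a vascular growth factor receptor, read 10.20, 10.31 and 10.38 in hearts and 8.93, 8.71 and 9.10 in soleus. Of 14 macrophage and leukocyte markers tested, 11 were higher in heart at the adjusted p and none lower (30.4% and 29.1% of all genes). None differed by a large amount, and list means were 7.91 to 7.99 in heart and 7.48 to 7.50 in soleus. Of 21 fibroblast and matrix markers, 13 were lower in heart at the adjusted p (29.1% of all genes were) and 2 higher, and 4 were lower by a large amount. These 4 were the tendon genes Tnmd, Thbs4, Fmod and Chad, and Tnmd, tenomodulin, read 5.64, 5.92 and 5.44 in hearts and 9.70, 9.63 and 9.83 in soleus. With the detection level at the 50th percentile Chad gave -1.99 and was not large. Dcn, a general fibroblast gene, averaged 13.15 in hearts and 13.13 in soleus, and the list means lay at 8.19 to 8.29 and 9.25 to 9.49. The adipocyte list had means of 7.27 to 7.38 on heart arrays and 7.70 to 8.47 on soleus arrays. Of 9 tested, 6 were lower in heart at the adjusted p (29.1% of all genes were) and 3 higher (30.4%). Retn and Scd1 were lower by a large amount, and none was higher by that size. Cidea, a lipid droplet gene, was among the 3 higher at the adjusted p, at 8.40 in hearts and 7.26 in soleus. Without soleus replicate 2 the differences were -1.90 for Retn and -1.75 for Scd1, in place of -2.29 and -2.03, and neither was large. With the detection level at the 50th percentile Retn gave -1.89. Without heart replicate 3, Scd1 also missed the threshold, at -1.98.

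Atrial markers did not follow the heart label as a group. Apart from Nppa, none of the 6 tested of 11 was higher in heart by a large amount, and 4 were lower at the adjusted p (29.1% of all genes were). Myl7, the atrial light chain, read 6.63, 6.72 and 6.17 in hearts and 6.27, 6.38 and 6.34 in soleus. Sln, sarcolipin, averaged 5.45 in hearts and 6.86 in soleus, and Bmp10 4.65 and 4.74. Sln, 1 of the 4 lower at the adjusted p, differed by -0.26 once its heart mean was raised to the detection level. Myl7, Sln and Bmp10 lay below the detection level as heart means. Myl4 and Stard10 lay above it, at 7.96 and 9.59 in hearts against 10.07 and 10.63 in soleus. Of 15 body clock genes tested, 12 were lower in heart at the adjusted p (29.1% of all genes were) and 1 higher (30.4%), with a median of -0.85. The 1 large difference was Ciart, at 7.35, 7.06 and 7.47 in hearts and 9.22, 9.97 and 9.20 in soleus. Dbp, a clock output factor, read 8.84, 8.07 and 8.58 in hearts and 10.29, 10.65 and 10.42 in soleus. The hour of harvest is not given in the sources used here. Without soleus replicate 2, Ciart differed by -1.92, in place of -2.17, and was not large.

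The second pair, FG-4497 heart minus knockout soleus, gave nearly the same large differences on other arrays. Of 12179 genes tested, 306 differed by a large amount (2.51%), 132 higher in heart (1.08%) and 174 lower (1.43%). At the adjusted p alone 54.3% passed, 27.7% higher and 26.6% lower, and the groups did not overlap for 62.3%. Of these, 108 were among the first pair's higher genes, which is 94.74% of the 114 and 81.82% of the 132, and 162 among its lower genes, 91.01% of the 178 and 93.1% of the 174. All 178 lower genes and 113 of the 114 higher genes passed the adjusted p with the same sign. Tnni3 differed by 7.19 in the first pair and 7.11 in the second, Pln by 6.35 and 6.30, and Atp2a1 by -7.08 and -7.01. Both pairs carry the same confounding of tissue with experiment.

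The exception was Gdpd3, a lysophospholipase D gene. It read 9.18, 9.26 and 9.15 in vehicle hearts and 5.15, 5.09 and 6.00 in wild-type soleus, and 9.30, 9.26 and 9.35 in FG-4497 hearts and 9.04, 9.90 and 9.33 in knockout soleus. Soleus of wild-type mice was low, and the other 3 groups were alike. The wild-type soleus mean lay below the detection level, so the first pair's difference is at least 2.60. The targeted gene Egln1 averaged 11.07 in knockout soleus and 11.27 in wild-type soleus, and 11.65 in FG-4497 hearts and 11.40 in vehicle hearts. Whether the probes of Egln1 lie in the deleted part of the gene was not tested. The difference between the pairs was tested for 11993 genes with limma over the 12 arrays, and 193 passed the adjusted p (1.61%).

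**Figure D5:**
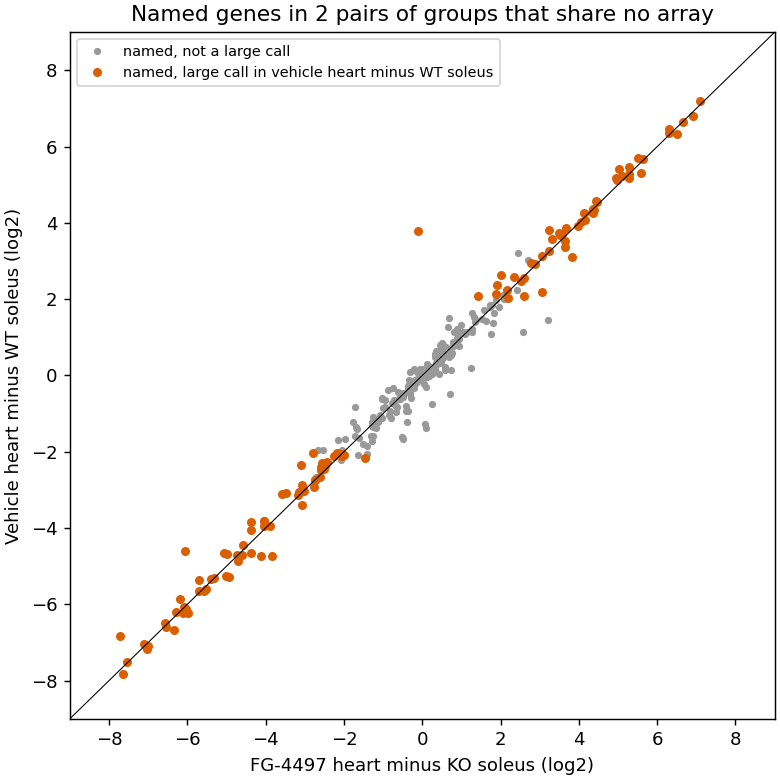
Heart minus soleus difference (log2) of the tested named genes in the first pair (vertical axis, vehicle heart minus wild-type soleus) against the second pair (horizontal axis, FG-4497 heart minus knockout soleus), with the line of equality. Most large differences of the first pair, in orange, lie close to the line. Gdpd3 lies farthest from it, at 3.78 as measured in the first pair (at least 2.60, since soleus was below the detection level) and -0.12 in the second, and Car3, Pfkl and Ak4 also differed between the pairs.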

How the data were processed

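RNA was extracted with TRIzol and reverse transcribed with random primers, per the labels' protocols. The deposited values are log2 expression values that the authors made with RMA (robust multi-array average), per the submitters' processing notes. Which arrays were normalized as 1 set, and with which version, is not stated there, and the values were used unchanged. The platform annotation gave 1 gene for 21789 of the 35556 probe sets, several for 1621 and none for 12146. Symbols of 21698 were looked up by gene identifier in GRCm38.p6, whether or not the symbol changed, and the brightest probe set stood for each of the 19938 genes.

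A gene was tested where at least 3 of the 6 arrays reached the 40th percentile level, 6.60 in both pairs. limma 3.58.1 in R 4.3.3 fitted 2 group means (lmFit, eBayes), with Benjamini-Hochberg adjustment. All tests of the difference are two-sided. The fit was tested on simulated data. With 3 against 3 arrays an exact permutation test cannot give a p below 0.1, so tests rest on limma's pooled variance, and the number of arrays limits precision. Heart and soleus arrays share replicate numbers but not animals, and deviations of same-numbered arrays correlated at -0.0147 to -0.1381, so no pairing was used.

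The comparison, its members and the 39 gene lists were chosen with earlier results of these data known. Named genes are the 15 largest differences each way, fixed marker and oxygen-sensing genes, and up to 6 large differences a list with others by rule, 263 genes in all. A further 68 were added after their values were seen, among them Actc1, Esr1, Gdpd3, Jph1 and Slc8a1. The test of the difference between pairs was also added after seeing the data. Sequences are from RefSeq tables of GRCm38.p6.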

Additional observations from a re-analysis of the deposited data

Results flagged for a closer look

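The heart minus soleus difference changed between the 2 pairs of groups for 15 of the 313 named genes tested for this, against 193 of all 11993 genes (1.61%). Of the 15, Gdpd3, Pfkp, Pgam1, Slc16a3 and Car4 were named after their values were seen, and by rule 10 of 250 passed. The values here are the second pair's difference, FG-4497 heart minus knockout soleus, less the first pair's, vehicle heart minus wild-type soleus, each past an adjusted p of 0.05 in limma's fit over 12 arrays. Since the second pair changes heart and soleus at once, group means follow each value, in the order FG-4497 heart, knockout soleus, vehicle heart and wild-type soleus. Gdpd3 gave -3.90 as measured, with 9.31, 9.43, 9.20 and 5.41. Its wild-type soleus mean lay below the detection level, so the first pair's difference is at least 2.60, against -0.12 in the second, and -3.90 rests on a mean below that level. Pfkp, a phosphofructokinase, gave 1.76, with 10.30, 7.08, 8.73 and 7.27. Wt1, an epicardial factor, gave 1.44, with 9.42, 6.85, 7.96 and 6.83.

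Genes of oxygen sensing and glycolysis were among the rest. Egln3 gave 1.2, with 12.13, 11.42, 11.05 and 11.54, so that its heart minus soleus difference changed sign. Egln1 gave 0.44, with 11.65, 11.07, 11.40 and 11.27. Vegfa gave 1.07, with 12.57, 11.31, 11.50 and 11.32. Pfkl gave 0.85, with 10.50, 7.45, 9.61 and 7.41. Ldha gave 0.51, with 12.95, 13.38, 12.43 and 13.37. Pgam1, phosphoglycerate mutase, gave 0.65, with 10.89, 9.13, 10.19 and 9.09. Slc16a3 gave 1.09, with 8.67, 9.20, 7.57 and 9.18. Ak4 gave 0.73, with 11.53, 7.70, 10.69 and 7.59. Nr4a1, an immediate early gene, gave 1.18, with 9.79, 10.27, 9.08 and 10.74. Sdc4, a syndecan, gave 0.81, with 8.76, 9.16, 8.22 and 9.43. Car4, a carbonic anhydrase, gave -0.83, with 9.61, 8.92, 10.13 and 8.61. Car3 gave -0.89 as measured, with 6.37, 14.09, 7.24 and 14.08, and its FG-4497 heart mean lay below the detection level. No cause was tested for these differences.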

How the results depend on the processing

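The large differences, 114 higher and 178 lower in heart, numbered 102 to 114 and 159 to 187 under other filters, detection levels, scalings, probe set summaries, priors, weights, the fit on all 18 arrays and limma's treat. The median of all genes moved to -0.04 when arrays were centred on their medians. Requiring a log2 difference of 1 in place of 2 gave 476 higher and 598 lower, and 541 and 588 in the second pair, since the size sets these counts. Testing against a log2 difference of 1 with treat left 660 genes past the adjusted p in the first pair and 658 in the second, in place of 7225 and 6619. Leaving out 1 array at a time gave 110 to 116 higher, 170 to 186 lower and 6505 to 7061 past the adjusted p, and in the second pair 127 to 135, 168 to 174 and 5935 to 6497. With the replicate number as a block, which is no real pairing here, 114 and 178 were again large and 6769 passed. There were 5653 gene and setting pairs over 315 named genes and 18 alternatives. Of these, 217 were no longer past the adjusted p and 35 newly passed it. Direction was reversed in 0 pairs where the gene passed the adjusted p in the main or the alternative setting. Sign changes of genes that passed in neither setting are not in this count. Of 118 named large differences, 97 were large in every alternative run. Limits: tissue and experiment cannot be told apart, precision rests on 3 arrays a group, and group means below 6.60 give bounds only.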
